A study of Homo sapiens with 6 samples.

Results

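The genes described here are 10 feedback inhibitors of mitogen-activated protein kinase (MAPK) signalling: the dual-specificity phosphatases DUSP1, DUSP2, DUSP4, DUSP5, DUSP6 and DUSP10, the Sprouty genes SPRY1 and SPRY2, and their relatives SPRED1 and SPRED2. They were taken as a gene list, and every probe set whose platform annotation named 1 of them as its only gene was used. That gave 22 probe sets for the 10 genes, of 54675 on the array, and 10 of the 13572 genes tested. The RNA came from Kasumi-1, a human acute myeloid leukaemia cell line with the RUNX1-RUNX1T1 fusion, grown in RPMI medium with bovine serum. In 3 samples the cells had vehicle for 24 h and in 3 samples 20 nM homoharringtonine (HHT), a plant alkaloid that blocks translation elongation, for 24 h. All samples come from 1 cell line and 1 dose and time. Whether the samples are separate cultures is not said in the labels, and the p-values therefore cover only the spread among these arrays, possibly technical. The series title ties HHT to the control of MYC and to NF-kB repressing factor.

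MAPK cascades carry signals from growth factor receptors and stress to the nucleus by a chain of kinases that ends in ERK, JNK or p38. The cascades restrain themselves: active ERK induces DUSP genes, whose products remove phosphate from MAPKs, and Sprouty and SPRED genes, whose products act further up, on RAS and RAF. Transcripts of several of these genes are short-lived, and in leukaemia with an active receptor kinase their level is widely read as a trace of ERK activity. In Kasumi-1 the receptor kinase KIT feeds this pathway.

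Promoter sequences are shown for DUSP1, which had the largest increase among the 10 genes, and for DUSP6 and DUSP2, which moved the other way. Each is the stretch of 250 bases just before the transcription start, 5′ to 3′ on the gene's strand, from RefSeq for GRCh38.p14. Capitals mark matches to 5 motifs searched on both strands. These were the cyclic AMP response element TGACGTCA, the AP-1 site TGANTCA, the ETS motif CCGGAA, the E-box CACGTG and the TATA box TATAAA. The DUSP1 stretch is chr5:172771196-172771445, that of DUSP6 is chr12:89352502-89352751 and that of DUSP2 is chr2:96145441-96145690, all 3 on the minus strand.
DUSP1: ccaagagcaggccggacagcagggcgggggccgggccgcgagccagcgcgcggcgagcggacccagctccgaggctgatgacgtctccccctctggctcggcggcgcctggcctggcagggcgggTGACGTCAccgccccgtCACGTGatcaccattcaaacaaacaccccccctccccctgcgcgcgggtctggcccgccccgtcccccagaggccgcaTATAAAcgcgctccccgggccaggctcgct
DUSP6: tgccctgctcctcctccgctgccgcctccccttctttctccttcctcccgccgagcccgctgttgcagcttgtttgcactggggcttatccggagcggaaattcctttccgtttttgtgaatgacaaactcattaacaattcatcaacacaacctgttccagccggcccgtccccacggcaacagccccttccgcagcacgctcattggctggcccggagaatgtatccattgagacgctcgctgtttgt
DUSP2: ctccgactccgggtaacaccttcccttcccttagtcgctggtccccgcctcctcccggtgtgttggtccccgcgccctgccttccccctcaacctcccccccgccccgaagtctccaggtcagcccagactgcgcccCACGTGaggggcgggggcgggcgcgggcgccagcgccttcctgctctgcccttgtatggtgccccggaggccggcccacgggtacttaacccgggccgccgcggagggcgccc
The DUSP1 window held a cyclic AMP response element that began 125 bases before the start, an E-box that began 108 bases before it and a TATA box that began 30 bases before it. The DUSP2 window held an E-box that began 113 bases before the start. The DUSP6 window held none of the 5 motifs in these spellings. The shorter GGAA, the end of the ETS motif, does occur in the DUSP6 window but was not searched. Of all 35116 promoter windows of this length, 1.65% held the cyclic AMP response element and 6.34% the E-box. The TATA box was in 10.7% of them, the ETS motif in 14.5% and the AP-1 site in 6.57%. RefSeq windows were matched for 8 of the 10 genes, 13 windows in all, and 8 of the 13 held none of the motifs. The other matches were an ETS motif in 1 of 2 SPRY1 windows and in 1 of 3 SPRY2 windows, and a TATA box in 1 of 2 SPRED2 windows. DUSP4 and DUSP5 were not matched. A match describes the letters in the window and does not show that a factor binds there.

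Each array is a one-colour Affymetrix 3' expression array, and levels below are its deposited log2 signals. Every array had a trimmed mean antilog signal between 500.06 and 500.07, and medians were 5.82 to 5.96 in vehicle and 5.53 to 5.78 in HHT. Arrays of the same group correlated at 0.963 to 0.975 across the tested probe sets and arrays of different groups at 0.918 to 0.932; probe sets are no replicates. The 18 spiked-in hybridisation controls were all lower in HHT, by 0.28 on average, so changes were also computed under other scalings. The sample titles number the vehicle arrays before the HHT arrays, so that order and treatment cannot be told apart. Of the blast markers, RUNX1T1 (13.23 in vehicle, 13.20 in HHT), KIT (14.83 and 14.22) and MPO (14.39 and 12.63) were bright in both groups, CD34 was at 9.20 and 8.03, and no measured marker had a value of 0. SPI1, also listed with them, was near the filter level in vehicle (4.81) and at 5.58 in HHT, a difference of 0.78 that was not called (adjusted p = 0.376). The mean level over the 5 measured blast markers ran from 11 to 11.5 in vehicle and from 10.6 to 10.8 in HHT, and KIT, MPO and CD34 were called lower. The part of that shift in the results below was not tested. Of the 3 lymphoid markers CD3D was bright (11.62 in vehicle) and CD3E (5.84) and MS4A1 (5.36) were dim. Of the 3 epithelial markers EPCAM was bright (13.69, with a called difference of -0.76 in HHT) and KRT8 (6.87) and CDH1 (4.91) were dim. The 5 markers of monocyte and granulocyte maturation averaged at most 6.36 on any array but were uneven. CEBPE was at 8.08 in vehicle and 8.36 in HHT, which is above CD34 in HHT. LYZ (7.27 in vehicle), CSF1R (6.46) and ITGAM (6.28) were lower, and CD14 (1.96) was under the filter level. Of these markers CSF1R was called lower in HHT (5.30, adjusted p = 0.0197 by limma).

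The feedback genes did not move as a block. By each gene's brightest probe set, 4 of 10 fell in HHT (DUSP6, DUSP4, DUSP2 and SPRED2) and 3 rose (DUSP1, DUSP5 and SPRY1), while DUSP10, SPRY2 and SPRED1 were not called. A call is an adjusted p under 0.05 in a limma fit over all 32768 probe sets tested, with Benjamini-Hochberg adjustment. Over the 13572 genes tested, 24.2% were called lower and 29.6% higher, and 53.8% either way, and the 7 called of 10 are to be read against that share. The groups did not overlap for 62.2% of all genes tested. Of the 22 probe sets, 18 passed the filter, which left out the 40% with the lowest mean over all 6 arrays, at a log2 level of 4.80. Of these 18, 9 were called lower (23.3% of all probe sets tested), 3 higher (23.0%) and 6 were not called, where 46.3% of all probe sets tested were called either way. Probe sets of 1 gene are repeat measures, so the 9 are not 9 genes. They include all 3 of DUSP6, all 3 of DUSP4 and 1 of SPRY1, whose brightest probe set rose. The groups did not overlap for 14 of the 18, as for 55.9% of all probe sets tested. The phosphatases gave 3 genes lower and 2 higher of 6, and the Sprouty and SPRED genes 1 lower and 1 higher of 4. The arrays hold bulk RNA, so fewer cells with a transcript and less of it per cell cannot be told apart.

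**Figure D1:**
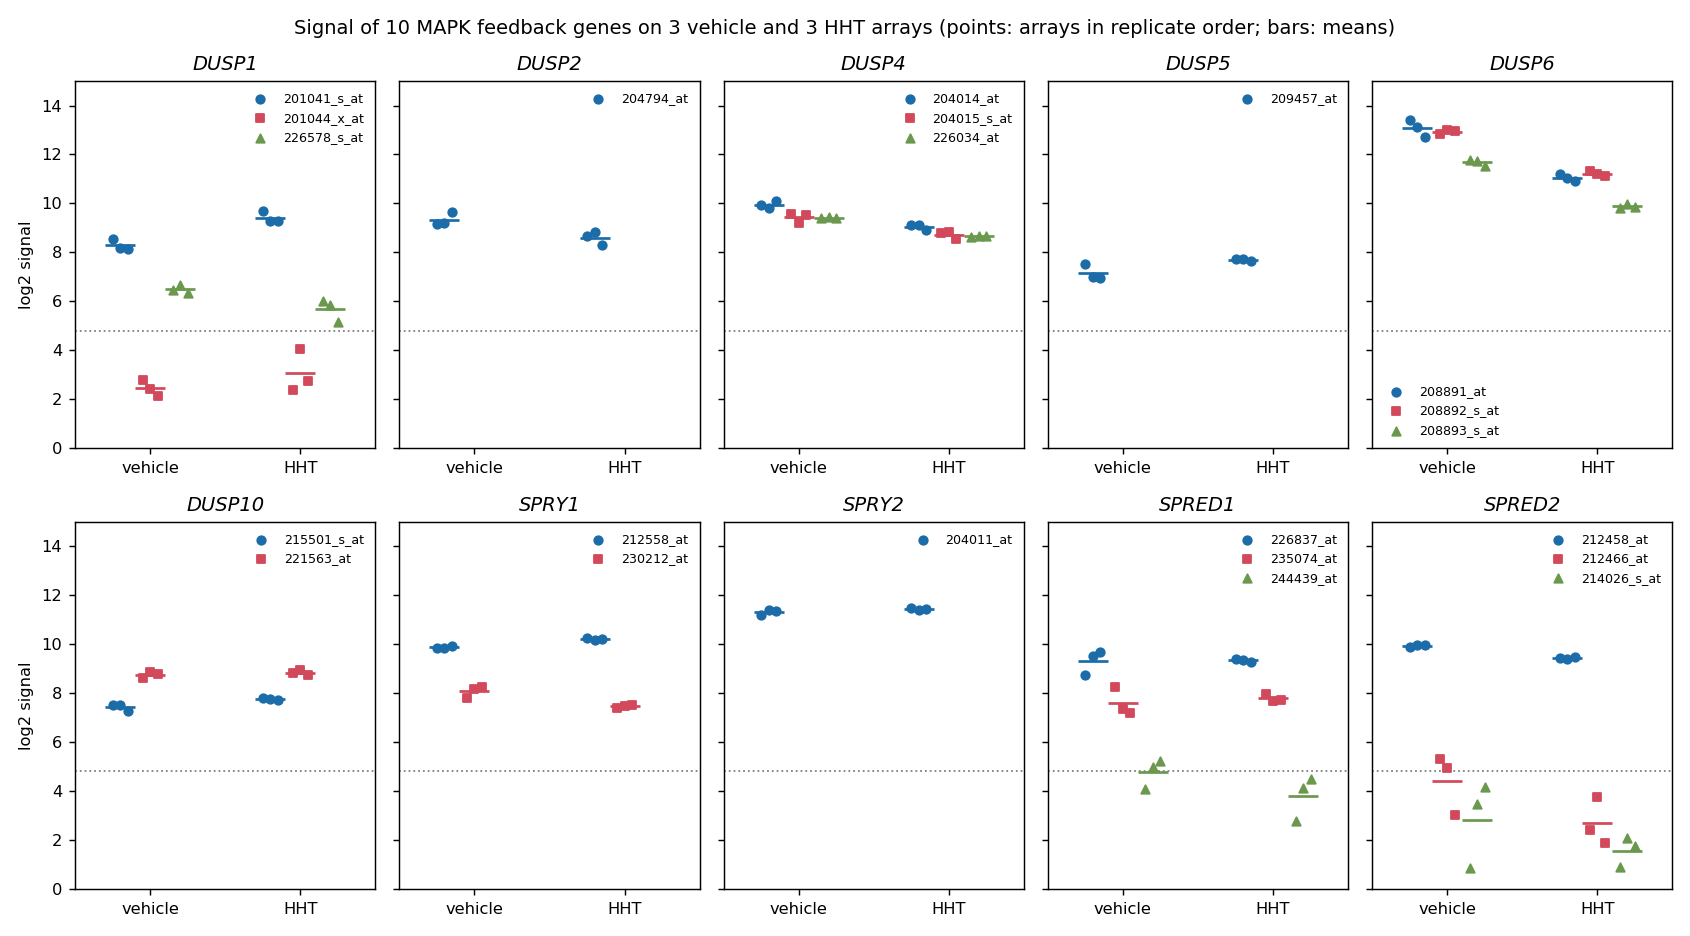
The log2 signal of every probe set of the 10 genes (vertical axis) is plotted for the 3 vehicle and the 3 HHT arrays (horizontal axis); points are arrays in replicate order, bars are group means and the dotted line is the filter level of 4.80. The 3 DUSP6 probe sets sit clearly lower in HHT, the bright DUSP1 probe set sits higher, and 4 probe sets (1 each of DUSP1 and SPRED1 and 2 of SPRED2) lie below the filter level on average.

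DUSP6 encodes a cytoplasmic phosphatase with a strong preference for ERK, and it gave the largest change among the 10 genes. Its brightest probe set was at 12.83, 12.99 and 12.94 in vehicle and at 11.34, 11.19 and 11.11 in HHT. Every HHT array was more than 1 log2 unit below every vehicle array. The transcript fell by 1.71 log2 units (SE 0.0739; limma, adjusted p = 6.52e-08), which is a 3.27-fold lower signal, from 12.92 ± 0.0814 to 11.21 ± 0.117 (SD, n = 3). The second DUSP6 probe set was at 13.39, 13.11 and 12.72 in vehicle and at 11.21, 11.02 and 10.92 in HHT and fell by 2.03 (SE 0.144). The dimmest was at 11.78, 11.74 and 11.54 against 9.79, 9.99 and 9.85 and fell by 1.81 (SE 0.0877). The 3 probe sets thus gave 3.27-fold to 4.07-fold lower signals, and the differences between them did not separate the groups. Of the 32768 probe sets tested, 583 had a more negative change than the brightest DUSP6 probe set.

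DUSP4 and DUSP2 encode nuclear phosphatases that are themselves induced by MAPK signalling. DUSP4 was measured by 3 probe sets, and all 3 fell. The brightest was at 9.96, 9.80 and 10.09 in vehicle and at 9.14, 9.11 and 8.89 in HHT, with no overlap. It fell by 0.90 (SE 0.109, adjusted p = 5.74e-05 by limma), a 1.87-fold lower signal. The others fell by 0.71 (SE 0.131) and 0.77 (SE 0.0946). The last of these was the tightest, with 9.41, 9.45 and 9.40 in vehicle and 8.64, 8.66 and 8.66 in HHT.

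DUSP2 had 1 probe set, at 9.14, 9.21 and 9.65 in vehicle and at 8.65, 8.82 and 8.31 in HHT. The groups were apart, although vehicle replicate 1 and HHT replicate 2 lay close together. DUSP2 fell by 0.74 (SE 0.167, adjusted p = 0.00401 by limma), a 1.67-fold lower signal, from 9.33 ± 0.279 to 8.60 ± 0.259 (SD, n = 3). The fall was 0.46 when spiked controls were made equal and 0.50 with equal medians, still called in both.

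DUSP1 encodes a nuclear phosphatase that acts on p38 and JNK as well as ERK and is a classic immediate early gene. Its brightest probe set was at 8.56, 8.16 and 8.13 in vehicle and at 9.67, 9.29 and 9.30 in HHT. All HHT arrays were above all vehicle arrays, and replicate 1 was the highest in each group. DUSP1 rose by 1.13 (SE 0.154, adjusted p = 0.000128 by limma), a 2.19-fold higher signal. A dimmer probe set of the gene pointed the other way, at 6.47, 6.67 and 6.34 in vehicle and 6.03, 5.84 and 5.16 in HHT. Its difference of -0.82 (SE 0.329, adjusted p = 0.0648) was not called, although its groups did not overlap. It was called without HHT replicate 1 (-0.99, adjusted p = 0.0488) and without a variance trend (adjusted p = 0.0477). The gap between both probe sets was 1.79 ± 0.304 in vehicle and 3.74 ± 0.359 in HHT (SD, n = 3), so it widened by 1.95. A two-sided exact permutation test gave p = 0.1, the smallest p possible for 3 against 3. That test could not have come out otherwise, as the probe sets separated the groups in opposite directions. The direction for DUSP1 therefore rests on the brightest probe set, and the mean over all 3 of its probe sets changed by only 0.306. The dimmest DUSP1 probe set had means of 2.46 and 3.06, under the filter level, and its groups overlapped.

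DUSP5 encodes a nuclear phosphatase specific to ERK. Its probe set was at 7.53, 6.98 and 6.95 in vehicle and at 7.72, 7.71 and 7.65 in HHT. The HHT arrays lay close together, and vehicle replicate 1 was nearer to them than to the other vehicle arrays. DUSP5 rose by 0.54 (SE 0.198, adjusted p = 0.0437 by limma), a 1.46-fold higher signal. The call was lost when any array except vehicle replicate 1 was left out (adjusted p 0.0855 to 0.123), and without that array the change was 0.73 (adjusted p = 0.0083).

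DUSP10 encodes a phosphatase that prefers p38 and JNK. Its brighter probe set was at 8.63, 8.85 and 8.76 in vehicle and at 8.82, 8.96 and 8.72 in HHT, and the groups overlapped. The difference was 0.08 (95% interval -0.17 to 0.34, adjusted p = 0.591 by limma). The other probe set was at 7.52, 7.50 and 7.27 against 7.78, 7.76 and 7.72, without overlap, and its difference of 0.33 was not called (adjusted p = 0.116). With equal hybridisation controls both were called higher, at 0.37 and 0.61, and with equal medians the dimmer one was, at 0.57.

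**Figure D2:**
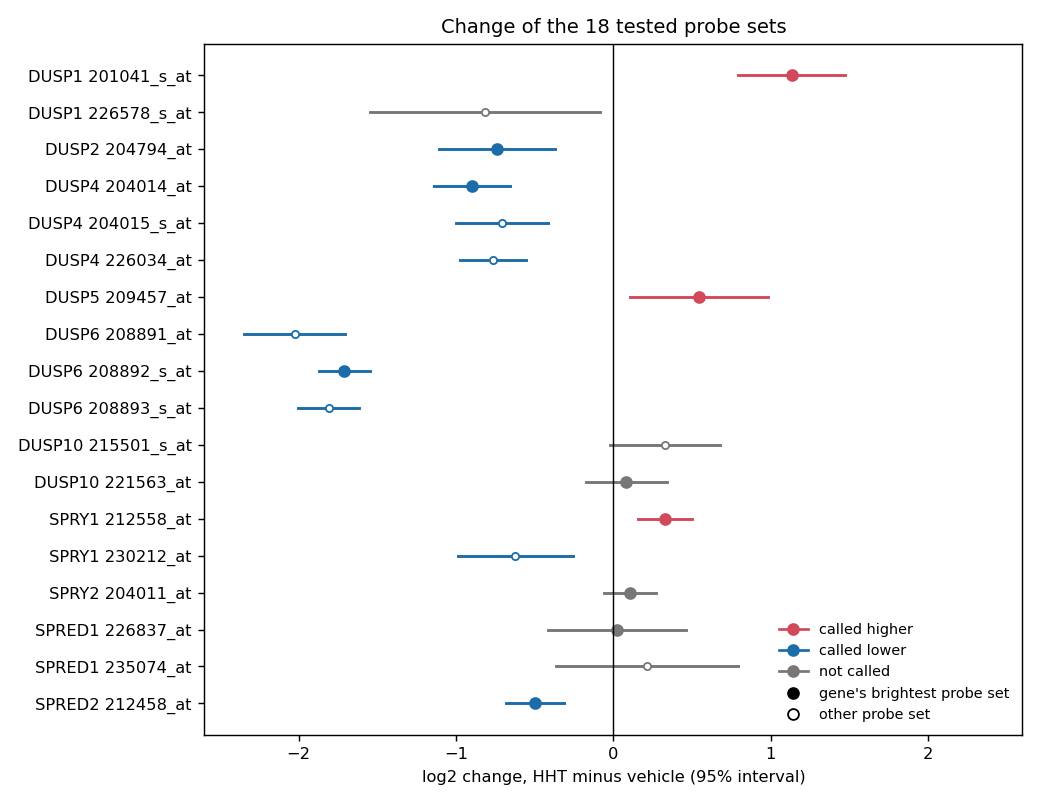
The log2 change from vehicle to HHT (horizontal axis) with its 95% interval is plotted for the 18 probe sets that were tested (vertical axis); red marks called higher, blue called lower, grey not called, and filled points each gene's brightest probe set. The 3 DUSP6 probe sets lie between -2.03 and -1.71, while the probe sets of DUSP1 and of SPRY1 point in opposite directions.

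SPRY1 and SPRY2 encode membrane-associated inhibitors of receptor tyrosine kinase signalling to RAS. The brighter SPRY1 probe set was at 9.85, 9.86 and 9.92 in vehicle and at 10.26, 10.17 and 10.19 in HHT, so every HHT array was higher. It rose by 0.33 (SE 0.0772, adjusted p = 0.00498 by limma), a 1.26-fold higher signal. The dimmer one was at 7.82, 8.18 and 8.26 in vehicle and at 7.37, 7.48 and 7.53 in HHT and fell by 0.62 (SE 0.166, adjusted p = 0.0102). Scaling to equal medians ended that call (-0.38, adjusted p = 0.145), as did scaling to equal spiked controls (-0.34, adjusted p = 0.135). The gap between both probe sets was 1.79 ± 0.208 in vehicle and 2.74 ± 0.125 in HHT (SD, n = 3). Shifting whole arrays cannot alter this widening of 0.951 (p = 0.1 in a two-sided exact permutation test). That test could not have come out otherwise, as the probe sets separated the groups in opposite directions. SPRY1 thus had 1 probe set called in each direction, and the mean over both changed by -0.15. SPRY2 was at 11.19, 11.41 and 11.37 in vehicle and at 11.47, 11.38 and 11.44 in HHT, with overlap. The SPRY2 difference was 0.11 (95% interval -0.06 to 0.27, adjusted p = 0.270 by limma). Equal medians (0.34) and equal spiked controls (0.39) each gave a call of higher.

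SPRED1 and SPRED2 encode Sprouty-related proteins that hold back RAS and RAF at the membrane, SPRED1 by recruiting neurofibromin. The brightest SPRED1 probe set was at 8.76, 9.53 and 9.67 in vehicle and at 9.40, 9.34 and 9.29 in HHT, and the second at 8.25, 7.33 and 7.18 against 7.98, 7.70 and 7.73. Vehicle replicate 1 stood apart in both, as the lowest array in the first and the highest in the second. The differences were 0.02 (95% interval -0.42 to 0.46, adjusted p = 0.936 by limma) and 0.21 (95% interval -0.36 to 0.79, adjusted p = 0.537). Without vehicle replicate 1 the first was -0.26 (adjusted p = 0.0702) and the second 0.55, which was called (adjusted p = 0.0367). The first was also below 0 after quantile normalization (-0.07). No direction could be given for SPRED1. Its dim probe set, with means of 4.77 and 3.79, was not tested.

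SPRED2 was at 9.86, 9.95 and 9.95 in vehicle and at 9.41, 9.39 and 9.47 in HHT on its bright probe set. The groups were apart by more than the range within either. SPRED2 fell by 0.50 (SE 0.0836, adjusted p = 0.000582 by limma), a 1.41-fold lower signal. Equal medians (-0.26, adjusted p = 0.125) and equal spiked controls (-0.21, adjusted p = 0.0926) each ended the call. The other SPRED2 probe sets had means of 4.43 and 2.69 and of 2.83 and 1.57. They were under the filter level and their groups overlapped.

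Ratios within an array do not depend on how arrays are scaled by a shift, and 4 pairs of genes were compared in this way by their brightest probe sets. The log2 ratio of DUSP1 to DUSP6 was -4.27, -4.83 and -4.81 in vehicle and -1.67, -1.91 and -1.81 in HHT, a change of 2.84. DUSP6 to DUSP4 changed by -0.809, with ratios of 2.88, 3.19 and 2.86 against 2.20, 2.08 and 2.21, so the drop was larger for DUSP6 than for DUSP4 in these arrays. SPRED2 to SPRED1 changed by -0.521 and SPRY1 to SPRY2 by 0.223. The groups did not overlap for any of the 4 pairs, which followed no stated rule. DUSP1 rose and DUSP6 fell without overlap, so the test of their ratio could not have come out otherwise. How often other gene pairs separate the groups was not computed. Each exact permutation test gave p = 0.1 (two-sided, also after Benjamini-Hochberg adjustment over the 4 pairs), the smallest that 3 against 3 allows.

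The scaling of the arrays shifted these genes together. Equal medians and equal hybridisation controls put the median change over all genes at 0.24 and 0.28 instead of about 0, and quantile normalization put it at 0.05. With equal hybridisation controls 5 of the 10 genes were called higher and 3 lower, where 41.6% and 12.8% of all genes were. With equal medians the counts were 4 and 3, where 37.3% and 12.7% of all genes were called. The median change of the 10 genes was 0.05 in the deposited scaling, -0.03 after quantile normalization and -0.12 to 0.13 with 1 array left out, so it has no settled sign. DUSP6, DUSP4 and DUSP2 were called lower and DUSP1, DUSP5 and SPRY1 higher, by their brightest probe sets, in the deposited scaling and in the other 3.

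**Figure D3:**
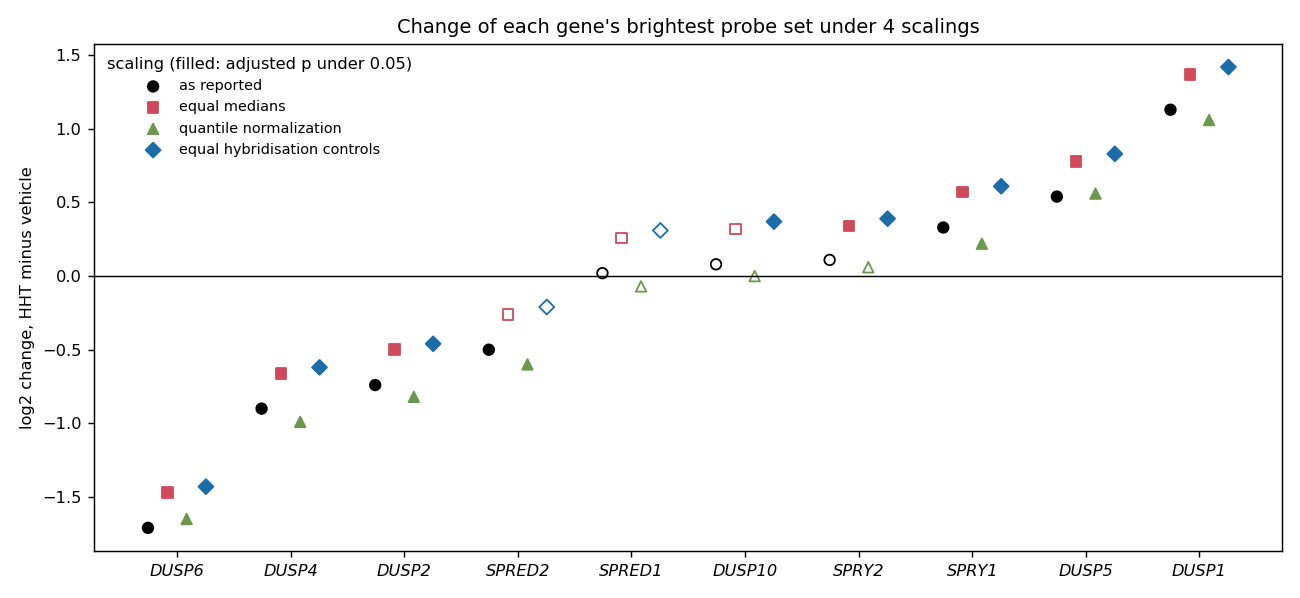
The log2 change of each gene's brightest probe set (vertical axis) is plotted for the 10 genes (horizontal axis) under 4 scalings of the arrays; filled symbols have an adjusted p under 0.05. DUSP6 stays between -1.71 and -1.43 and DUSP1 between 1.06 and 1.42, while SPRED1 changes sign and SPRED2, SPRY2 and DUSP10 change their call.

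Other brakes on the pathway moved in both directions as well. Of 20 listed genes (further MAPK phosphatases, SPRY4, SPRED3 and negative regulators of RAS and receptor signalling) 17 were tested, 8 rose and 3 fell, with a median of 0.42 beside a median of about 0 for all genes. Over all genes 29.6% were called higher and 24.2% lower, shares that hold for the next 3 lists too. The median of these brakes was 0.16 without vehicle replicate 2 and 0.03 with the lowest 60% of probe sets left out. DUSP8, a phosphatase for JNK and p38, rose from 6.46, 3.04 and 6.10 to 7.62, 7.43 and 6.75 and was at least 2.80-fold higher by the group means, as 1 vehicle array lay below the filter level. Without that array, vehicle replicate 2, the log2 change was 0.99 (adjusted p = 0.0297 by limma), a fold under the 2.80-fold bound. The size on this probe set therefore rests on 1 array. Its call was lost without any 1 of the HHT arrays (adjusted p 0.0532 to 0.105) and without a variance trend (adjusted p = 0.138). A dimmer DUSP8 probe set was at 4.77, 4.29 and 5.94 in vehicle and at 6.78, 6.25 and 7.01 in HHT. This dimmer probe set rose by 1.68 (adjusted p = 0.0114 by limma), with its lower vehicle values below the filter level. The mean of both DUSP8 probe sets rose by 1.88 (adjusted p = 0.0163 by limma). NF1, which encodes the RAS inactivator neurofibromin, was at 3.62, 5.20 and 5.32 in vehicle and at 6.50, 6.89 and 6.76 in HHT. By the same reckoning NF1 was at least 3.05-fold higher. Without its lowest array, vehicle replicate 1, its log2 change was 1.46, a fold also under its bound. The NF1 vehicle mean of 4.71 was under the filter level, so it passed the filter only through its HHT signal. Its place among the genes that rose carries that limit. PEBP1, a RAF-binding inhibitor, fell by 0.96 (SE 0.0490) and DUSP14 fell by 0.66 (SE 0.116). ERRFI1, an inhibitor of the EGF receptor, was singled out after its values were seen: it was at 8.88, 8.94 and 8.88 in vehicle and at 10.25, 10.25 and 10.10 in HHT and rose by 1.30 (SE 0.0889).

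The genes of the cascade itself gave both directions at shares near or below those of all genes. Of 27 listed genes of adaptors, exchange factors, RAS, RAF, MEK, ERK and RSK, 21 were tested, 5 rose, 3 fell and 13 were not called, with a median of 0.02 (-0.05 to 0.08 with 1 array left out). GAB1, a docking protein, rose by 1.19 (SE 0.105) on its brightest probe set and by 0.60 (adjusted p = 0.0142) in the mean of its probe sets. RASGRP1, a RAS exchange factor, rose by 0.96 (SE 0.122). Its other genes that rose were SHOC2, SOS1 and SOS2. PTPN11, the phosphatase SHP2, fell by 0.43 (SE 0.0470) on its brightest probe set, a call lost under each of the other 3 scalings (adjusted p 0.0622 to 0.153). The mean of the PTPN11 probe sets changed by -0.13 and was not called (adjusted p = 0.473 by limma). ARAF fell by 0.38 (SE 0.142, adjusted p = 0.0476 by limma), a call lost with equal medians (-0.15) and without any of vehicle replicates 2 and 3 and HHT replicates 2 and 3. MAP2K1 (0.16, adjusted p = 0.0771) and MAPK3 (0.02, adjusted p = 0.943) were not called. With equal medians the list gave 9 genes higher and 0 lower by limma (0 also at an unadjusted p under 0.05), and with equal hybridisation controls 10 and 0 (1 lower at an unadjusted p under 0.05). Under these scalings 37.3% and 41.6% of all genes were called higher and 12.7% and 12.8% lower, so the increases are near the share of all genes.

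Genes of the JNK and p38 cascades moved in both directions: of 17 tested among 20 listed, 5 rose and 5 fell, near the shares of all genes, with a median of 0.05 that was -0.23 without vehicle replicate 3. Equal medians made the split 7 and 2, and equal spiked controls made it 8 and 3, again close to the 37.3% and 41.6% of all genes called higher. The upstream kinases MAP3K7 (TAK1) and MAP3K1 rose by 0.68 (SE 0.0725) and 0.64 (SE 0.0565). MAPKAPK2 and MAPKAPK3, kinases activated by p38, fell by 0.84 (SE 0.171) and 0.69 (SE 0.0806) on their brightest probe sets. The other MAPKAPK2 probe sets differed by -0.43 (adjusted p = 0.302 by limma) and -0.90 (adjusted p = 0.202). They were not called, and their groups overlapped. The mean of the MAPKAPK2 probe sets fell by 0.72 (adjusted p = 0.00875 by limma).

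Transcripts known to follow ERK activity moved in both directions. Of 20 listed, 13 were tested, 3 rose (29.6% of all genes) and 5 fell (24.2%). The split was 5 and 4 when either medians (37.3% and 12.7% of all genes) or spiked controls (41.6% and 12.8%) were made equal. The median of 0.05 was 0.27 without vehicle replicate 1 and -0.17 without vehicle replicate 2. PHLDA1 rose by 2.21 (SE 0.149), from 7.67 ± 0.288 to 9.88 ± 0.0952 (SD, n = 3), on its brightest probe set and by 0.87 (adjusted p = 0.0133 by limma) in the mean of its probe sets. The transcription factor gene ETV1 rose by 0.92 (SE 0.148), although its mean over all probe sets changed by -0.15. MYC fell by 4.40 and FOSL1 was at least 2.51-fold lower, with 2 HHT arrays below the filter level. The FOSL1 HHT mean of 3.70 was under the filter level, so it passed the filter only through its vehicle signal. Its place among the 5 genes that fell carries that limit. Without vehicle replicate 1 or without vehicle replicate 2 FOSL1 was not tested, and 4 genes of the list were called lower. ETV5, an ETS factor, and CCND1, which encodes cyclin D1, were named after their values were seen. ETV5 was at 9.48, 9.76 and 9.52 in vehicle and at 7.23, 7.47 and 7.42 in HHT and fell by 2.21 (SE 0.131). CCND1 was at 8.42, 8.73 and 9.12 against 7.11, 7.06 and 7.14 and fell by 1.65 (SE 0.184). EGR1 (0.05, adjusted p = 0.851) and IER2 (0.02, adjusted p = 0.839) were not called, and SPRY4, which is in this list and in that of the other brakes, differed by 0.96, with an SD of 2.04 among vehicle arrays, and was not called (adjusted p = 0.392).

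**Figure D4:**
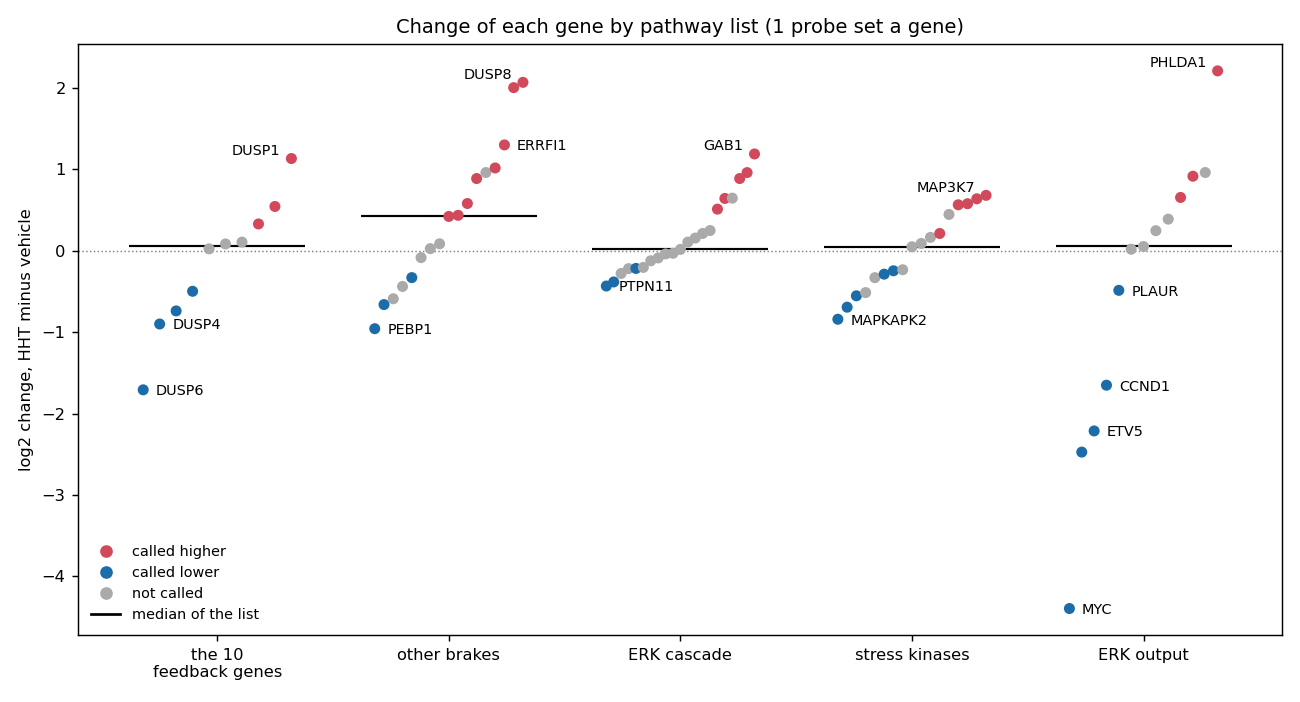
The log2 change from vehicle to HHT (vertical axis) is plotted for each tested gene of the 10 feedback genes and of 4 pathway lists (horizontal axis), in order of size within a list; red marks called higher, blue called lower, grey not called, and the black line the median of the list. The ERK output list spans -4.40 to 2.21, against -0.43 to 1.19 for the ERK cascade.

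By Euclidean distance over the 6 array values, each gene centred on its own mean, the genes nearest to DUSP6 among the 13562 other genes tested were TEAD4 (distance 0.0796), TTLL12 (0.133) and SLC38A5 (0.135), on the log2 scale. TEAD4 was at 9.31, 9.55 and 9.47 in vehicle and at 7.91, 7.73 and 7.69 in HHT. Those nearest to DUSP1 were DDIT3 (0.171), TRIM56 (0.174) and CAPRIN2 (0.221). DDIT3 shared the high replicate 1 of both groups, at 10.53, 10.14 and 10.07 in vehicle and at 11.54, 11.27 and 11.40 in HHT. With 2 groups of 3 arrays this measure mostly orders genes by the size of their change.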

How the data were processed

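The authors deposited a log2 signal for each probe set on each array; the submitters' processing notes name MAS5, without a version. No detection calls were used. Because the values are log2, no pseudocount was added. Leaving out 62 control probe sets and, by mean signal across the 6 arrays, the dimmest 40% of the others kept 32768 for testing. The test was limma's (version 3.58.1, R 4.3.3), by lmFit and by eBayes with a variance trend, with Benjamini-Hochberg adjustment over all of them. Genes were named through the platform annotation; 41091 probe sets had 1 gene, and symbols of 41037 were updated through Entrez IDs with RefSeq GRCh38.p14. Among a gene's single-gene probe sets, the brightest on average stood for the gene. Listed genes without a tested single-gene probe set were not analysed here. Errors are standard errors of changes and SDs of group means, and 3 arrays a group limit the precision. A fold is a lower bound where an array of a non-member gene lay below 4.80 and was set to it. The rule for named genes took all 10 members, the 2 called genes with the largest increase and the 2 with the largest decrease in each of 4 lists, and the 3 genes nearest to the member with the largest increase and to that with the largest decrease. The members, lists and motifs were chosen with earlier results of these data known. On simulated data with 100 of 13572 genes changed at each size, the test recovered 64% of changes of 1 on the log2 scale. It recovered 75% of changes of 2, with 3 unchanged probe sets called. In the real data 46.3% of probe sets were called, a far larger share than was changed here. The adjustment depends on that share, so these recovery rates need not hold for the real data.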

Additional observations from a re-analysis of the deposited data

How the results depend on the processing

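Of the 12 member probe sets called, 9 were called in the same direction under every alternative that gave them a value (other scalings, filters, variance models, a pseudocount of 64, the block, an adjusted p under 0.01 and leaving out each array); DUSP5, SPRED2 and the dimmer SPRY1 probe set were not. Member probe sets called higher (3) became 5 with equal medians and 6 when spiked hybridisation controls were made equal. Member genes called higher (3) became 5 with equal hybridisation controls and 1 from the mean of probe sets. When calls also needed a log2 change of 1 or more in size, 1 member probe set was higher and 3 lower, and 1 member gene each way. Under that threshold the other brakes gave 4 higher and 0 lower, the cascade 1 and 0, the stress kinases 0 and 0, and ERK output 1 higher and 4 lower by limma, where 9.56% of all genes were higher and 5.94% lower. These counts include NF1 among the brakes and FOSL1 among the ERK output genes, which each passed the filter through 1 group only. Equal medians and equal hybridisation controls gave 9 and 10 cascade genes higher with 0 lower, 5 ERK output genes higher in both, 2 and 3 stress kinases lower, and the latter 8 stress kinases higher. Cascade genes called lower (3) were 1 without a variance trend, at an adjusted p under 0.01 and from the mean of probe sets, where 3 were higher, and 1 to 3 with 1 array left out (1 without vehicle replicate 3 and without HHT replicate 2). SPRED1 (brightest probe set) turned to -0.07 after quantile normalization and ran from -0.26 to 0.20 with 1 array left out, and ETV1 turned to -0.15 from the mean of probe sets. The cause was not tested, except that a stricter threshold calls fewer genes. Deviations of same-numbered arrays from their group means correlated at 0.0655, -0.0141 and 0.0491, and those of differently numbered arrays at -0.0887 to 0.0424. With 3 arrays a group these values cannot show whether same-numbered arrays were paired. With the replicate number as a block, 3 member probe sets were called higher and 9 lower. Dim signals limit the 4 untested member probe sets, none of which was called without a filter (adjusted p 0.221 to 0.694).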
